A study of Chromochloris zofingiensis with 14 samples.

Results

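Close divergent gene pairs are neighbouring genes that are transcribed away from each other, with only a short region between their coding starts. They were selected on the distance in the deposited gene annotation of the unicellular green alga Chromochloris zofingiensis, strain SAG 211-14. A pair was taken where the left gene lay on the minus strand, the right gene on the plus strand, and 400 or fewer bases lay between them. On the 19 chromosomes 214 such pairs were found among 3723 divergent pairs and 14408 neighbouring pairs of any orientation. They held 428 of 14427 chromosomal genes, and no gene lay in more than 1 divergent pair.

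The study sequenced the transcriptome of this alga in 14 growth conditions with 1 library each. They were light of 40, 100 or 400 μmol photons per square metre and second, darkness, and media lacking nitrogen, phosphorus, sulfur or iron. The others were hydrogen peroxide (1 mM), rose bengal (5 μM) at either of 2 exposures, glucose (20 mM), and lack of oxygen in light or dark. Treatment times, where given, ran from 1 to 72 h. All 14 are listed at 25 °C with a day of 16 h light and 8 h dark. The file analysed holds gene positions and no value of any sample, so what follows describes gene models and compares no conditions.

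In compact genomes the region between divergent genes often works as a bidirectional promoter, from which transcription starts on both strands. Such a region can hold 5′ untranslated parts and start sites of both genes, and genes that share it can be expressed together. The annotation marks neither, so where they lie in these pairs is not known. Whether the pairs described here share a promoter or are expressed together was not tested. Distances in this annotation run from one coding start to the other, since no gene span extended past its first or last coding base.

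Divergent neighbours were seldom close. Of the 3723 divergent pairs, 5.75% (5.02 to 6.54, 95% Clopper-Pearson) lay 400 bases or less apart. Among all neighbouring pairs 16.9% did, with 13.0% (11.9 to 14.1) of convergent pairs, whose 3′ ends face each other, and 24.9% (23.8 to 25.9) of pairs in the same direction. Up to 1000 bases the orientations differed less. By then 53.5% of divergent, 46.7% of convergent and 53.6% of same-direction pairs were reached.

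The distances of the 214 pairs, which chose them, ran from 44 to 399 bases with a median of 217 and quartiles of 111 and 336. Per 100 bases, divergent pairs were spread evenly up to 300 bases. There were 48 at 100 bases or less, 48 from 101 to 200 and 49 from 201 to 300. Within the lowest class, 9 lay at 50 bases or less and 39 from 51 to 100. The number per 50 bases then climbed, from 23 at 301 to 350 to 46 at 351 to 400, 89 in the 50 bases past the limit and 209 at 551 to 600, the fullest class up to 2000 bases. The limit of 400 bases thus lay on the lower slope of this main body of divergent pairs. Same-direction pairs had their fullest class at 201 to 250 bases, with 279 pairs, where only 22 divergent pairs lay. No divergent pair overlapped, and the lowest distance was 44 bases, against 3 for convergent and 1 for same-direction pairs.

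**Figure D1:**
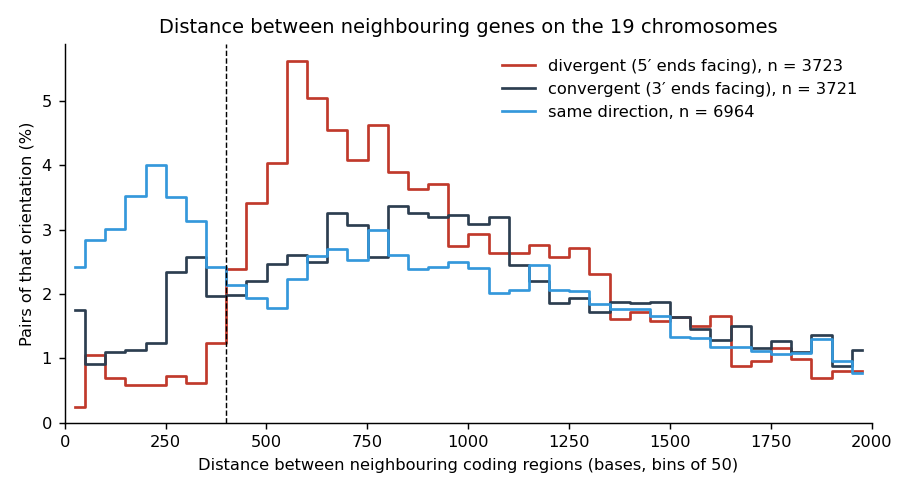
Share of neighbouring pairs of each orientation (y axis, percent of that orientation) by the distance between their coding regions (x axis, bases, in bins of 50), with a dashed line at 400 bases. The line for divergent pairs stays low up to 350 bases and peaks at 551 to 600 bases, where 209 of 3723 pairs lie.

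The pair with the shortest region lay on chromosome 10, where 44 bases (870701 to 870744) separated Cz10g08160, 4263 coding bases in 1 segment, from Cz10g08170, 2634 in 2 segments. Next came 45 bases on chromosome 17 (706196 to 706240) between Cz17g07020, 396 coding bases in 5 segments, and Cz17g07030, 2355 in 1. A region of 46 bases occurred on chromosome 1 (3446432 to 3446477) between Cz01g34200 and Cz01g34210, with 1491 and 897 coding bases. Another of 46 bases lay on chromosome 2 (2096519 to 2096564) between Cz02g20250 and Cz02g20260, with 627 and 255. These closest pairs were of no single kind. They joined long with long, long with short, and genes without introns with genes of several.

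At the upper edge, the last pairs taken had 398 bases between Cz07g18030 and Cz07g18040, with 4125 and 2046 coding bases, and 399 between Cz07g08180 and Cz07g08190, with 375 and 378. The first pairs left out lay 1 base past the limit. One joined Cz10g25210 and Cz10g25220, with 1101 and 4926 coding bases, and the other Cz13g04210 and Cz13g04220, with 411 and 312. Long and short genes thus occurred on either side of the limit.

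Genes of close pairs were shorter than those of divergent pairs farther apart. Their median coding length was 690 bases (quartiles 335.25 and 1363.5, n = 428 genes), against 1149 (651 and 1929, n = 7018) in the 3509 farther pairs and 1062 over all chromosomal genes. Coding length and the distance share the position of the coding start, so they are not fully separate measures. The median was lower in close pairs on 19 of 19 chromosomes, with a difference of −470 ± 184 bases (close minus farther, mean and SD over chromosomes). By chromosome it ran from 393 bases on chromosome 18, with 2 pairs, to 1017 on chromosome 1, and from 984 to 1267.5 in farther pairs, so that only chromosome 1 fell inside the range of the farther pairs.

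Genes of under 500 coding bases made up much of this. They were 174 of 428 genes in close pairs, 40.7% (36.0 to 45.5, Clopper-Pearson), against 16.6% (15.8 to 17.5) in farther pairs and 20.2% of all chromosomal genes. The share was above that of farther pairs on 19 of 19 chromosomes, by 24.7 ± 8.88 percentage points. It lay between 30.0% and 57.7% by chromosome, and between 12.5% and 23.2% in farther pairs.

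Introns were also fewer. Close pairs had a mean of 2.61 introns per gene (SD 2.90, median 1), against 4.58 (SD 4.52, median 4) in farther pairs and 4.08 over all chromosomal genes. The mean was lower on 19 of 19 chromosomes, with a difference of −1.91 ± 0.814 introns (mean and SD over chromosomes). It ran from 1.10 on chromosome 10 to 4.25 on chromosome 19 in close pairs, and from 3.88 to 4.95 in farther pairs. Only chromosome 19 reached the range of the farther pairs.

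Genes without introns were 120 of 428 in close pairs, 28.0% (23.8 to 32.6, Clopper-Pearson), against 12.3% (11.5 to 13.0) in farther pairs and 16.1% of all chromosomal genes. The share was higher in close pairs on 17 of 19 chromosomes, by 15.4 ± 8.98 percentage points over all of them. Chromosomes 14 and 19 went the other way, with 3 of 20 and 1 of 12 genes of their close pairs. It was highest on chromosome 5, at 41.2%.

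**Figure D2:**
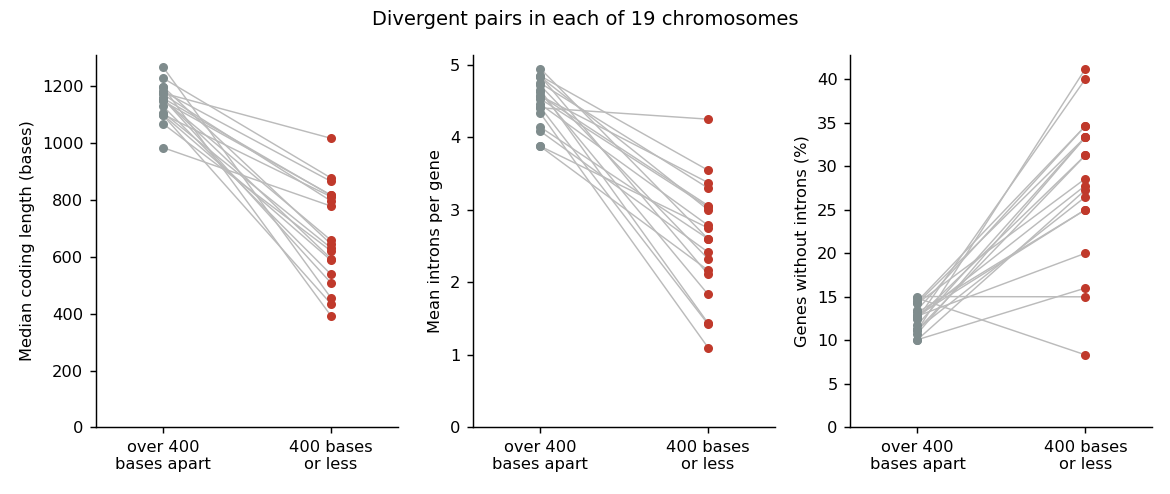
Median coding length (bases), mean introns per gene and percent of genes without introns, one point per chromosome for divergent pairs over 400 bases apart (grey) and at 400 bases or less (red), joined by a line for each chromosome. Coding length and introns are lower in close pairs on all 19 chromosomes, and the share without introns is higher on 17.

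Part of the lower intron number went with the shorter coding length. Per 1000 coding bases, close pairs had 2.54 introns and farther pairs 2.91, a difference of −0.368 that was smaller than its SD over chromosomes of 0.81. Among genes of under 500 coding bases the mean was 0.816 introns in 174 close genes and 1.12 in 1166 farther ones. From 500 to 999 bases it was 2.27 against 2.73, from 1000 to under 2000 bases 4.14 against 4.72, and from 2000 bases up 6.0 in 50 close genes against 8.84 in 1667. The share without introns was above that of farther pairs in each of these classes. The values were 47.7% against 37.5%, 24.4% against 14.5%, 9.65% against 5.39%, and 8.00% (4 genes) against 1.80%. With genes of 500 coding bases or more alone, the difference in this share was 7.34 points, smaller than its SD over chromosomes of 11.3. With genes of 1000 or more alone, the differences of 5.25 points (SD 12.6) and −1.73 introns (SD 2.23) were also smaller than their spread.

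Within the close pairs, structure changed near the upper end of the distance. The median coding length was 531 bases in pairs at 100 bases or less, 621 from 101 to 200, 577.5 from 201 to 300, and 1047 from 301 to 400. It then stayed between 1111.5 and 1207.5 in the classes beyond 400 bases. Mean introns were 1.54, 2.83, 2.07 and 3.59 in the same 4 classes of close pairs, and 3.98 to 5.01 beyond. Genes without introns made up 31.2%, 26.0%, 34.7% and 22.5%, and 9.40% to 15.3% beyond. The pairs from 301 to 400 bases thus lay nearest to farther pairs in all 3 measures. Spearman's rho between the distance and the summed coding length of the pair was 0.186 over the 214 close pairs and 0.00166 over the 3509 farther ones, given as a description.

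**Figure D3:**
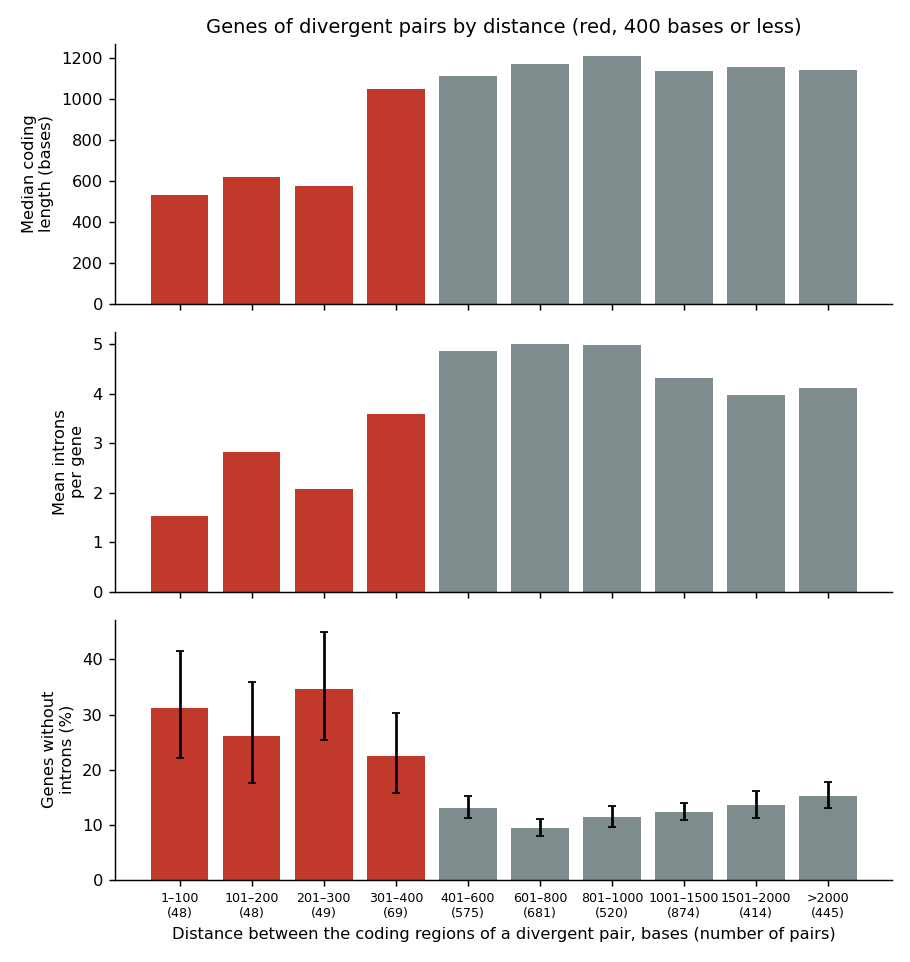
Median coding length, mean introns per gene and percent of genes without introns (95% Clopper-Pearson bars) by the distance of the divergent pair in bases, with the number of pairs in brackets and close pairs in red. Median coding length is 531 to 621 bases up to 300 bases apart and 1047 from 301 to 400.

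The 5′ ends of the genes, the side that faces the shared region, carried early introns more often. An intron within the first 50 coding bases occurred in 72 of 428 genes of close pairs, 16.8% (13.4 to 20.7, Clopper-Pearson), against 10.9% (10.1 to 11.6) in farther pairs. The share was higher on 16 of 19 chromosomes, but the difference of 8.95 ± 11.8 points was smaller than its spread over them. Each chromosome counts alike in this mean and SD, and chromosome 17, with 3 close pairs, had the largest difference, 49.7 points. Over all genes the difference was 5.96 points, and 5.21 without chromosomes 17 and 18. The intervals of the shares do not overlap, though they cover counting error only. Of the genes with introns, 23.4% had one so early, against 12.4%. The excess was greatest where genes were short. Of genes with introns under 500 coding bases, 39.6% had such an intron in close pairs and 18.4% in farther ones. From 500 to 999 bases the values were 19.1% and 12.2%, and from 1000 to under 2000 bases 18.4% and 10.2%. From 2000 bases up they were 8.70% (4 genes) and 12.8%. Farther pairs up to 1000 bases apart, with 13.5% of all their genes, lay between the close pairs and those above 1000 bases, with 8.17%. Within the close pairs the share did not fall evenly with distance. It was 20.8% at 100 bases or less, 18.8% from 101 to 200, 11.2% from 201 to 300 and 16.7% from 301 to 400. The value from 201 to 300 lay below the 13.5%, but its interval (5.74 to 19.2, Clopper-Pearson) contains it.

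Over genes of all lengths together, other parts of the gene differed little. The first coding segment of genes with introns had a median of 128.5 bases in close and 147 in farther pairs, lower on 12 of 19 chromosomes. It was 70 against 114 bases in genes under 500 coding bases, and 185 against 156 from 2000 bases up. In the classes between it was 132.5 against 143 and 171 against 166. The first intron had a median of 231.5 against 231 bases, and later introns 265.5 against 264. The deposited score of a gene model, whose meaning the file does not state, had a median of 0.79 against 0.80. Of scored genes, 82.2% against 81.3% reached 0.5. By coding length the score went in both directions. Its median was 0.86 against 0.78 in genes under 500 bases and 0.77 against 0.81 from 500 to 999. From 1000 to under 2000 bases it was 0.71 against 0.81, and from 2000 up 0.71 against 0.80. Left and right genes of close pairs had 619.5 and 736.5 coding bases, and 26.6% and 29.4% of them had no intron.

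Within pairs, both the shorter and the longer gene were smaller than their counterparts in farther pairs. The shorter gene of a close pair had a median of 355.5 coding bases and a mean of 1.70 introns, the longer one 1227 bases and 3.53 introns. In farther pairs these were 747 bases with 2.99 introns and 1740 bases with 6.17. Exactly 1 gene was under 500 bases in 104 close pairs (48.6%), and both were in 35 (16.4%). In farther pairs the shares were 26.8% and 3.22%. No intron on either side was found in 20 close pairs, 9.35%, against 2.05% of farther pairs, and on 1 side in 80, 37.4%, against 20.4%. From the start of the left gene to the end of the right, the median close pair covered 2984.5 bases and the median farther pair 6060.

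The partners of a pair were weakly alike in intron number and not in coding length. Spearman's rho between left and right gene was −0.03 for coding length and 0.26 for intron number over 214 close pairs. Over 3509 farther pairs it was 0.03 and 0.05. The points share a place on the chromosome. With limits of 200, 300 and 500 bases, rho for intron number was 0.17, 0.15 and 0.30.

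The pair with the most introns lay on chromosome 15, with 191 bases (563749 to 563939) between Cz15g05090, 1497 coding bases in 9 segments, and Cz15g05100, 3528 in 16. The pair with the longest summed coding length lay on chromosome 14, with 378 bases (319799 to 320176) between Cz14g03070, 1062 coding bases in 3 segments, and Cz14g03080, 9495 in 10. Intron-rich and very long genes therefore occurred in close pairs. Genes of 2000 or more coding bases were 11.7% of genes in close pairs, against 23.8% in farther pairs and 21.4% of all chromosomal genes.

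On the 3′ side, which the choice of pairs did not use, genes of close pairs also had nearer neighbours. The median distance to the next gene was 747 bases (quartiles 321.5 and 1314.5, n = 427 genes), against 995 (576 and 1586, n = 7011). It was lower on 13 of 19 chromosomes, and the difference of −170 ± 236 bases was smaller than its spread over them. That neighbour lay within 400 bases for 130 genes, 30.4% (26.1 to 35.1, Clopper-Pearson), against 1193 of 7011 (16.1% to 17.9%) in farther pairs. On each side it did so for 28 of 214 close pairs and 120 of 3509 farther ones. The neighbour on the 3′ side was convergent for 53.2% of genes in close and 52.2% in farther pairs. Without the 27 close pairs that stood in runs of 3 or more spaced 20000 bases or less apart, the median was 861 bases, which moved the difference from −248 to −134 bases.

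Short genes with few introns were found at other close borders too. Genes of convergent pairs at 400 bases or less had a median of 903 coding bases, 3.40 introns and 21.3% without introns (n = 968), against 1104, 4.16 and 15.8% in farther convergent pairs. Genes of close same-direction pairs had 781.5 coding bases, 2.81 introns and 25.3% without introns (n = 3182). An intron within the first 50 coding bases was present in 11.3% of the close convergent and 6.98% of the close same-direction genes, below the 16.8% of the close divergent ones.

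Close pairs were present on every chromosome, with 2 on chromosome 18 and 25 on chromosome 2. Per Mb of sequence there were 3.68 ± 1.43 pairs (mean and SD over 19 chromosomes), from 1.32 on chromosome 18 to 5.91 on chromosome 2. As a share of divergent pairs they made up 3.16% (1.37 to 6.14, Clopper-Pearson) on chromosome 6 and 8.61% (4.66 to 14.3) on chromosome 16. These intervals overlap, and the interval of every chromosome contains the 5.75% of all. In the outer 10% at each chromosome end lay 36 of 214 close pairs, 16.8% (12.1 to 22.5), and 19.3% of all divergent pairs.

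**Figure D4:**
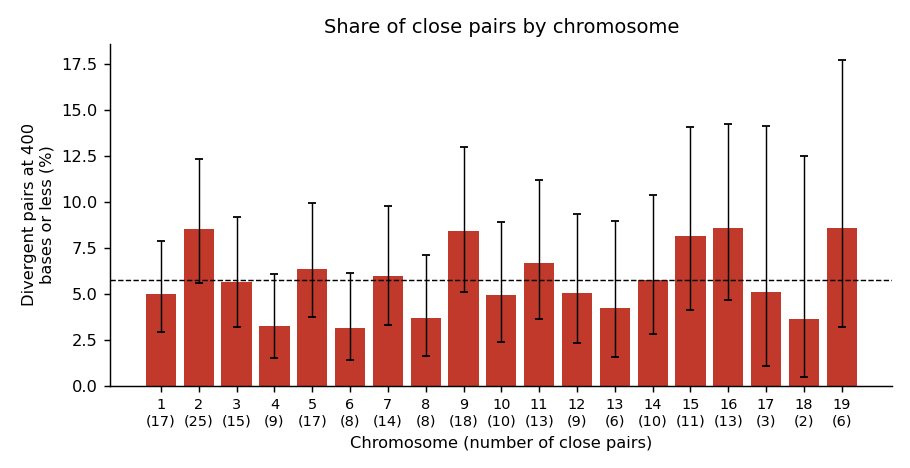
Close pairs as a percent of all divergent pairs on each chromosome, with 95% Clopper-Pearson bars, the number of close pairs in brackets and a dashed line at 5.75%. Shares run from 3.16% on chromosome 6 to 8.61% on chromosome 16 and every bar crosses the line.

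Some close pairs lay next to each other. The median spacing from one close pair to the next on the same chromosome was 148071 bases over 195 spacings, and the shortest was 1709 bases on chromosome 7. In 32 of these 195 cases the next divergent pair of any distance was itself close, where 5.75% of all divergent pairs were close. The last close pair of each chromosome has no spacing and is not among the 195. Runs of 3 or more close pairs spaced 20000 bases or less apart, defined after the positions were seen, numbered 7 and held 27 pairs. Farther divergent pairs could lie within a run.

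The fullest run lay on chromosome 2, from 2095588 to 2142391. Its 46804 bases held 34 genes. Of these 15 had no intron, against 16.1% of all chromosomal genes, and none had a Name, against 3.41%. All 7 of its divergent pairs were close. Their distances were 46 bases for Cz02g20250 and Cz02g20260, 64 for Cz02g21030 and Cz02g21040, and 111 for Cz02g21080 and Cz02g21090. They were 291 for Cz02g21180 and Cz02g21190, 56 for Cz02g21210 and Cz02g21220, 65 for Cz02g21250 and Cz02g21260, and 263 for Cz02g21290 and Cz02g21300. No gene of these 7 pairs had more than 3 introns. Over all 34 genes the coding length had a median of 684 bases.

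**Figure D5:**
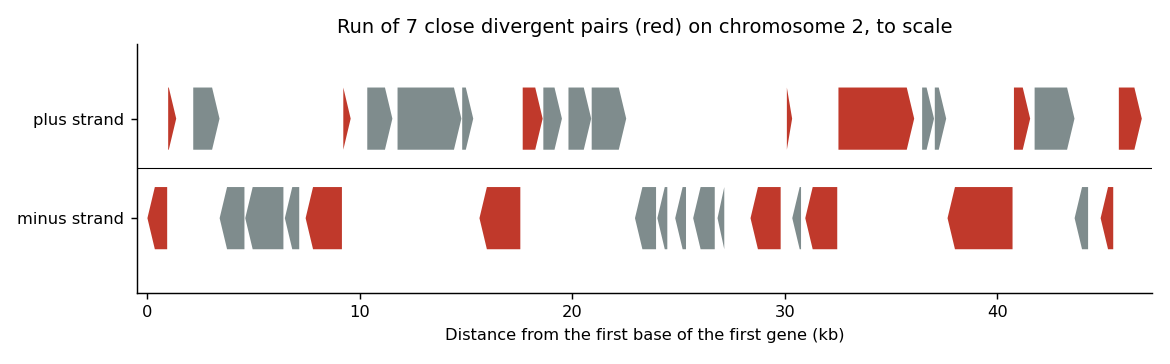
Genes of the run of 7 close pairs on chromosome 2, drawn to scale along the distance from the first gene (x axis, kb), plus strand above and minus strand below, with arrowheads showing the direction of transcription and genes of close pairs in red. The 34 genes cover 46804 bases.

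A second run, on chromosome 5 from 1185153 to 1203837, had 4 divergent pairs among its 9 genes, all of them close. From left to right the distances were 151, 47, 64 and 54 bases. The fourth pair joined Cz05g11310, 3114 coding bases without an intron, to Cz05g12010, 387 coding bases in 5 segments. The other 5 runs lay on chromosomes 1, 2, 5, 15 and 16 with 3 or 4 close pairs each. No gene in any of the 7 runs, of 8 to 34 genes each, had a Name. Since 3.41% of all chromosomal genes had one, the runs hold too few genes for this absence to be a result.

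Several pairs shared a layout in the annotation. On chromosome 17, Cz17g10210 (1089054 to 1090700) and Cz17g10220 (1090871 to 1092517) faced away from each other across 170 bases with identical structures. Each had 621 coding bases in segments of 30, 37, 115, 106 and 333 bases, split by introns of 240, 231, 309 and 246 bases. It was the only such pair among 114 close pairs in which both genes had introns, and 0 of 2721 such farther pairs had 2 identical structures. Their sequences were not compared.

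The region of 54 bases next to Cz05g12010 had a counterpart on chromosome 9, where 54 bases (2210717 to 2210770) lay between Cz09g22030 and Cz09g22040. Cz09g22040 had the same 387 coding bases as Cz05g12010, with segments of 8, 105, 164, 105 and 5 bases in each. The first and the fourth intron had 205 and 285 bases in both genes. The second had 305 and 294 bases and the third 757 and 544. Each gene faced a gene without introns, of 3114 and 588 coding bases. A further match joined chromosomes 7 and 15. There, 54 bases separated a gene of 2 segments (Cz07g08200, 333 coding bases, and Cz15g21110, 258) from a gene of 1059 coding bases in 1 segment (Cz07g08210 and Cz15g21120), and the next gene followed 247 bases behind each. These were the only matches among the 214 pairs in distance, coding length and intron number of one gene. They were found by searching the layouts and carry no test.

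Genes with a Name were few in close pairs. There were 11 among 428 genes, 2.57% (1.29 to 4.55, Clopper-Pearson), against 3.78% (3.34 to 4.25) in farther pairs and 3.41% of all chromosomal genes. The intervals overlap. Of 214 close pairs, 203 had no Name, 11 had 1 and none had 2. Of 3509 farther pairs, 249 had 1 Name and 8 had 2. Pairs with 2 Names were too rare among farther pairs for their absence among close pairs to be a result. The partners of the 11 had a median of 540 coding bases, from 225 to 2772. Of these partners 5 had no intron, and the file gives them no name or description.

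Genes of energy metabolism stood in several of these pairs. The named gene closest to its partner was SDH2 (Cz15g13230, chromosome 15, 1352308 to 1354185), the iron-sulfur subunit of succinate dehydrogenase, which links the citric acid cycle to respiration. It had 858 coding bases in 6 segments, and 138 bases (1352170 to 1352307) lay between it and Cz15g13210, with 318 in 2. SDH2 was the 1 manually made model in the close pairs. OSCP (Cz03g14200, chromosome 3, 1472234 to 1474099), a stalk subunit of ATP synthase, had 648 coding bases in 6 segments. It lay 207 bases (1474100 to 1474306) from Cz03g14210, which had 807 in 4.

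IDH2 (Cz11g28180, chromosome 11, 2877454 to 2880345), an isocitrate dehydrogenase of the citric acid cycle, had 1155 coding bases in 8 segments. It lay 379 bases from Cz11g28170, with 2025 in 6. PGM4 (Cz14g08090, chromosome 14, 823998 to 826970), a phosphoglycerate mutase of glycolysis, had 1563 coding bases in 6 segments and lay 351 bases from Cz14g08100, with 2370 in 8. In both pairs the partner without a Name was the longer gene and also had several introns.

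Proteins of transport, pigment synthesis and lipid synthesis stood in others. SECY1 (Cz04g37160, chromosome 4, 3795951 to 3799283), described as a SecY preprotein translocase, the membrane channel of the Sec pathway, had 1851 coding bases in 4 segments. It lay 209 bases (3799284 to 3799492) from Cz04g37170, which had 312 in 1. CRD1 (Cz16g08310, chromosome 16, 894830 to 896609), the cyclase that closes the fifth ring of chlorophyll, had 1221 coding bases in 4 segments. It lay 370 bases from Cz16g08320, with 540 in 1. ENR (Cz11g20040, chromosome 11, 2015983 to 2018980), the enoyl ACP reductase that completes each round of fatty acid elongation, had 1140 coding bases in 8 segments. Its partner Cz11g20030, 360 bases away, had 2772 in 6.

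ELIP5 (Cz02g38160, chromosome 2, 3846587 to 3847111), a homolog of the early light-induced proteins of plants, was short, with 333 coding bases in 2 segments. It lay 273 bases (3846314 to 3846586) from Cz02g38150, with 243 in 1. HCF164A (Cz07g07160, chromosome 7, 741393 to 742132), whose Arabidopsis relative is a thioredoxin-like thylakoid protein needed to assemble the cytochrome b6f complex, had 375 coding bases in 2 segments. It lay 276 bases from Cz07g07150, with 300 in 1. In these 2 pairs neither gene reached 500 coding bases.

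TRX2 (Cz13g13140, chromosome 13, 1349744 to 1350760), a thioredoxin, which reduces disulfide bonds in other proteins, had 471 coding bases in 3 segments. It lay 396 bases from Cz13g13130, with 1086 in 7. MAPK-1 (Cz13g05100, chromosome 13, 530850 to 532778), whose name is that of the mitogen-activated protein kinases of signalling cascades, had 1113 coding bases in 3 segments. It lay 347 bases from Cz13g05090, with 225 in 1. Chromosomes 11 and 13 thus held 2 named pairs each, and no other chromosome had more than 1.

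By pathway, few named genes stood in close pairs, with 11 of 492, 2.24%, beside 2.97% of all chromosomal genes. Close pairs held 3 of 77 genes of glycolysis, the Calvin cycle and central carbon metabolism, 2 of 111 of the photosystems, light harvesting and electron transport, and 1 of 104 of lipid synthesis. They held 1 of 47 of chlorophyll and tetrapyrrole synthesis, 1 of 38 of protein import and quality control, and 2 of 14 thioredoxin-related genes. No member of the carotenoid and isoprenoid list (21 genes) or of the short list for translation (4 genes) was among them. HCF164A counts in 2 lists. Of 83 named genes in no list, MAPK-1 and OSCP stood in close pairs. With 0 to 3 genes per list these counts allow no comparison between pathways.

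The 8 divergent pairs in which both genes had a Name were among the 3509 farther pairs, at 479 to 1627 bases. They are too few to compare with the 214 close pairs. The nearest to the limit was OxaA2 (Cz01g09150), a membrane insertion protein, with FABZ (Cz01g09160), a dehydratase of fatty acid synthesis, at 479 bases on chromosome 1. At 502 bases on chromosome 7, SDH4 (Cz07g14015) faced away from SDH3 (Cz07g14020). Both are described as succinate dehydrogenase subunits, as is SDH2 of the close pair on chromosome 15. On chromosome 13, the ferredoxin gene FDX4 (Cz13g08015) and GCPE (Cz13g08020), an enzyme of the plastid isoprenoid pathway, were 736 bases apart. The others were FTSH7 with CPSRP1, ATO2B with LCKAS1, PYK5 with KAR2, LHC13 with NYC1, and MGD with LYSM, at 821, 848, 938, 955 and 1627 bases.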

How the data were processed

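The file analysed was the annotation deposited for all 14 samples. Its source column names AUGUSTUS, which predicts genes from sequence, for 427 of the 428 genes in close pairs and manual work for 1. Model scores were used as the authors deposited them, and what a score measures is not stated. Per the submitters' processing notes, STAR 2.4.0j and Cuffdiff 2.2.1 were used for the series. Their settings and the assembly's name were not given in the sources used here. Positions count from 1. No column of per-sample values was used, so depth per sample was not analysed here.

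Genes on 19 chromosomes were sorted by start, and the distance was the right start minus the left end minus 1 (Python 3.11.15, pandas 2.3.3, scipy 1.17.1). The reader and the pairing were tested on simulated data. Pairs of one annotation are not replicates, so no p-value is given. Differences are shown as the number of chromosomes with each direction, with the mean and SD over chromosomes. Clopper-Pearson intervals (95%) cover counting error only. Alternatives changed the distance limit, the score, the model source, the chromosomes and the farther set. Named were pairs with 1 or 2 Names, the closest 5, those next to the limit, and the longest and most intron-rich. Pairs of the runs and of like layout were chosen after their values were seen. Members, lists and measures were chosen with earlier results of these data known. Sequences were not analysed here.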

Additional observations from a re-analysis of the deposited data

How the results depend on the processing

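Of 152 alternative values, 136 stayed near the reported one and 16 moved. Near meant within the SD over chromosomes for differences, the standard error for correlations, 1.5 times for counts and the variation between chromosomes, and the Clopper-Pearson interval for shares of other orientations. No difference above its SD over chromosomes turned its direction. Differences below their SD could count as near even with a changed sign. The first intron, for example, went from 0.5 to −16 bases at a limit of 500. Leaving out a chromosome could not move the number of close pairs beyond 1.5 times. Shares of other orientations change with the limit by definition. The tally is therefore no measure of robustness. Leaving out each chromosome in turn gave 189 to 212 close pairs, differences of −481.5 to −435 bases in coding length, −2.02 to −1.90 in introns, 14.6 to 17.2 points in genes without introns, and −258.5 to −222 bases on the 3′ side. With both models scored at least 0.5, 146 close pairs were left, and the difference in coding length was −505.5 bases.

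Limits of 200 and 500 bases gave 96 and 430 close pairs. At 500 bases the intron difference shrank to −1.12, the difference in genes under 500 coding bases to 14.6 points, and that in named genes was 0.673 points in place of −1.21. At 200 and 300 bases the difference in named genes was −3.27 and −2.06 points. As medians, introns differed by −3, and per 1000 coding bases by −0.368, which is another unit and lay within its SD over chromosomes of 0.81. Among genes of 1000 coding bases or more, an alternative added after seeing the data, the share without introns differed by 5.25 points (SD over chromosomes 12.6) and introns by −1.73 (SD 2.23). Among genes of 500 or more the share differed by 7.34 points (SD 11.3). The rank correlation between partners for coding length was −0.104, −0.105 and 0.0859 at 200, 300 and 500 bases, and for introns 0.17, 0.15 and 0.30. Close convergent pairs made up 4.89% at 200 and 46.7% at 1000 bases, same-direction pairs 11.8% and 53.6%. Counts and shares within a limit fall or rise with the limit by definition. The cause of the other shifts was not tested. The rank correlation was not run against other sets of farther pairs, since it uses close pairs alone. Differences in model score, named genes, early introns, first segment and intron length were within the SD over chromosomes. No paired analysis was possible because each condition has 1 library and no value of any sample was used. The number of pairs limits precision: chromosomes 17 and 18 held 3 and 2.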
